A study of Homo sapiens with 2 samples.

Results

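Stretches of the genome in which accessible regions found in 1 of 2 ATAC-seq libraries belonged mostly to the primed library are described here, on 4 human chromosomes in build hg38. They are chr11:71-72 Mb, chr14:70-72 Mb, chr19:7-8 Mb and chr22:40-41 Mb. All peaks with a summit in them were taken, which gave 367 of 299673 hTBLC peaks and 575 of 295753 primed peaks, or 296 hTBLC and 470 primed regions after overlapping peaks of a library were joined. These 766 regions came from 492868 in all. The windows were chosen on measured values of these same libraries, namely their counts of primed-only against hTBLC-only regions. Every comparison of the hTBLC with the primed library below is therefore a description, with no test, and 1 library in each group would allow none.

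Both libraries came from WIBR3, a human embryonic stem cell line. The hTBLC library came from cells that the study describes as having been brought towards totipotency by repressing the spliceosome; the labels give no agent, dose or duration. The primed library came from the same line in its conventional pluripotent state. ATAC-seq cuts and tags open DNA with a transposase, so that reads pile up where chromatin is accessible, and the study asked where hTBLCs were more open or more closed than the stem cells.

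Open chromatin in a mammalian cell lies mostly at promoters and at enhancers, short elements that bind transcription factors and can act on genes far away. Promoters rich in CG dinucleotides tend to be open in nearly all cell types, whereas enhancers inside introns and between genes differ from one cell state to the next. Genes that lie side by side can share such elements, which is why accessibility is often read over long stretches and not gene by gene.

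A region is called hTBLC-only or primed-only when it touched no region of the other library, and shared when it touched one. Matched regions are shared pairs in which each region touched only the other. In the windows 243 hTBLC and 236 primed regions were shared, and 213 pairs were matched. The signal given is the pileup, the number of reads or fragments stacked at a summit, solved from the deposited fold and p-value. The background under the peaks was 1.96 in the hTBLC library and 1.79 in the primed library, and each ratio of an hTBLC to a primed pileup was divided by 1.095 on that account. The lowest pileup listed was 7 in the hTBLC library and 6 in the primed library, so a region called absent can hold a weaker signal. In bulk chromatin, fewer cells with an open region and less opening per cell cannot be told apart. At state markers, hTBLC and primed pileups within 1 kb of a gene end were 85 and 116 for SOX2, 21 and 35 for NANOG and 91 and 47 for LIN28A. At POU5F1, the pluripotency factor OCT4, there was no hTBLC region and a primed pileup of 37. Of the early cleavage stage genes, DUXA and LEUTX had a region in neither library, ZSCAN4 had none in hTBLCs and a pileup of 15 in primed cells, and TPRX1 had 42 in hTBLCs and 46 in primed cells.

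The promoters printed here show start sites of the windows that were open in both libraries or in the primed library alone. They are RefSeq sequences of GRCh38.p14, each running 5′ to 3′ on the gene's own strand from 250 bases before to 50 after its annotated start. Capitals mark GGGCGG (GC box), CCAAT and CCGGAA (ETS core) on either strand. The genes were chosen after their values were seen: NADSYN1, on the plus strand at chr11:71452953-71453252, MAP3K9, on the minus strand at chr14:70809464-70809763, and TNRC6B, on the plus strand at chr22:40044584-40044883, were strongly open in both libraries. CAMSAP3, on the plus strand at chr19:7595613-7595912, was open in both but weaker in hTBLCs, and RETN, on the plus strand at chr19:7668799-7669098, had a region in the primed library alone.
NADSYN1: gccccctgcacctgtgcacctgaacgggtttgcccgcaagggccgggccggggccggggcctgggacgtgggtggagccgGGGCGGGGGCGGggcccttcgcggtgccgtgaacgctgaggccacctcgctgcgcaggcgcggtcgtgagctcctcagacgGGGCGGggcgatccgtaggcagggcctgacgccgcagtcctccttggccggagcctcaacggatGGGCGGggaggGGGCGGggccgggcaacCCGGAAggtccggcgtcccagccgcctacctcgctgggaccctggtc
MAP3K9: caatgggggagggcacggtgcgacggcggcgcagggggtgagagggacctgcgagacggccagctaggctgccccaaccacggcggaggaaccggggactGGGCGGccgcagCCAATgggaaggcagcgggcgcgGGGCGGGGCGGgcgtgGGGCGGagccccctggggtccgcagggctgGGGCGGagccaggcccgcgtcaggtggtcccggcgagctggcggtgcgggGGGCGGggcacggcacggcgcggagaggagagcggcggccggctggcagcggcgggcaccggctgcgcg
TNRC6B: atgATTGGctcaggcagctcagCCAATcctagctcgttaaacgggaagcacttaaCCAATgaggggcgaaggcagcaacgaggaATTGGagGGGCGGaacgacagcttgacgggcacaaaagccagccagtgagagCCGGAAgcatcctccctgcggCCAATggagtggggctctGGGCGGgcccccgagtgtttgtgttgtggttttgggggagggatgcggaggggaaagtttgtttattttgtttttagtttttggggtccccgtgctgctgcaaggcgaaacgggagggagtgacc
CAMSAP3: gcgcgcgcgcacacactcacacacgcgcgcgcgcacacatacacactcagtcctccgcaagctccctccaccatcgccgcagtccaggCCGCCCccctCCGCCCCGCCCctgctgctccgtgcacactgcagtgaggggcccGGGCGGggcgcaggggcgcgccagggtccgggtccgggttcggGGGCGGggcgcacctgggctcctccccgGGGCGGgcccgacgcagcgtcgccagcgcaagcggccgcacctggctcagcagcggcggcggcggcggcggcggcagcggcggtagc
RETN: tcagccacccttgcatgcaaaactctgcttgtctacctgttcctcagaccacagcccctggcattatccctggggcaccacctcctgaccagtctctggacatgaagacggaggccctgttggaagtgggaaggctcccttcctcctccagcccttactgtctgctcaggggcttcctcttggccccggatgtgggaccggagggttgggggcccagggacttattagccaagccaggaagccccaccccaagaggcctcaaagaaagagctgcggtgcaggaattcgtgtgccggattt

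RETN, which codes for the hormone resistin, held none of these letters and 6 CG dinucleotides. CAMSAP3, a binder of microtubule minus ends, held 44, with 6 GC boxes. NADSYN1, an enzyme of NAD synthesis, held 34, MAP3K9, a kinase of the JNK pathway, held 40, and TNRC6B, a partner of Argonaute proteins in microRNA silencing, held 15, with 5 CCAAT boxes.

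Of the 287 library-only regions in the 4 windows, 53 were hTBLC-only and 234 primed-only. The hTBLC-only share was 18.5% (95% Wilson interval 14.4% to 23.4%), against 52.1% over the genome. Seen from each library, 17.9% of the hTBLC regions in the windows were hTBLC-only, where 39.2% of all hTBLC regions were, and 49.8% of the primed regions in the windows were primed-only, where 37.3% of all primed regions were. The rule used this contrast, so nothing further is read from these shares. The intervals here and below cover counting error only, and neighbouring regions are not independent.

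The counts of each window follow, with shares that the choice of windows kept low. On chromosome 11 there were 8 hTBLC-only and 43 primed-only regions, a share of 15.7% (8.17% to 28.0%). On chromosome 14 there were 23 hTBLC-only and 100 primed-only regions over 2 Mb, a share of 18.7% (12.8% to 26.5%), with 12 hTBLC-only and 48 primed-only in the first megabase and 11 hTBLC-only and 52 primed-only in the second. On chromosome 19 there were 9 hTBLC-only and 39 primed-only regions, a share of 18.8% (10.2% to 31.9%). On chromosome 22 there were 13 hTBLC-only and 52 primed-only regions, a share of 20% (12.1% to 31.3%).

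Cut into 1 Mb pieces, these windows were the 5 lowest of 2703 with at least 30 library-only regions, where the median share was 52.7% and the quartiles 44.6% and 60.4%. The border of the choice was narrow. The last pieces inside, on chromosomes 14 and 22, each had 20%, and the first outside was chr10:74-75 Mb with 11 hTBLC-only and 39 primed-only regions, or 22%. The next was chr20:35-36 Mb with 8 hTBLC-only and 28 primed-only, or 22.2%. Windows with more protein-coding genes had lower shares across the genome: the median was 62.9% in the 298 windows without such a gene and 41.5% in the 187 windows with 21 or more. The pieces of the windows held the midpoints of 4 to 34 such genes, and the part of gene density in their shares was not tested.

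**Figure D1:**
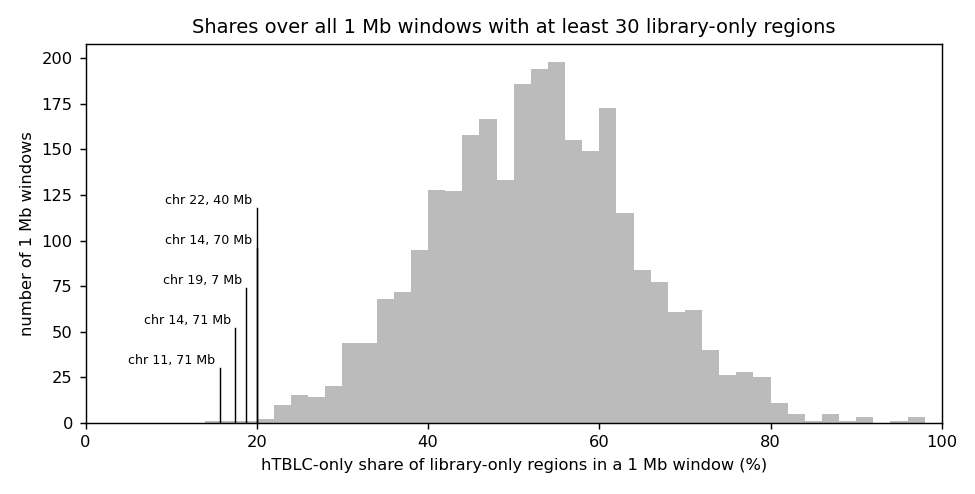
Histogram of the hTBLC-only share of library-only regions (x axis, percent) over 2703 windows of 1 Mb (y axis, number of windows). Black lines of different heights, drawn only to keep the labels apart, mark the 5 pieces of the windows described here, at 15.7% to 20%, against a median of 52.7%.

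The library-only regions were mostly weak in both directions. Their median pileup was 12 for hTBLC-only and 12 for primed-only regions in the windows, and also over the genome. At a −log10 q of 10 there were 7 hTBLC-only and 42 primed-only regions, against 11999 hTBLC-only and 13428 primed-only over the genome, and at 5 there were 17 hTBLC-only and 110 primed-only, against 33056 hTBLC-only and 37792 primed-only. The highest pileup was 52 among hTBLC-only and 95 among primed-only regions. Of the primed-only regions, 4 lay below the lowest −log10 p of the hTBLC list, 2.83, where no hTBLC peak could be listed. The local background behind matched peaks was also lower in hTBLCs here, with a median log2 ratio of hTBLC to primed, after the scaling for depth, of -0.22 against -0.002 over the genome. Its part in the counts was not tested.

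Primed-only regions lay both in genes and between them. Inside protein-coding genes there were 33 hTBLC-only and 149 primed-only regions, a share of 18.1% (genome, 48.2%), and outside them 20 hTBLC-only and 85 primed-only, a share of 19.1% (genome, 55.9%). Of 73 protein-coding genes that reach into the windows, 5 had an excess of hTBLC-only regions and 36 of primed-only ones, 5 had equal numbers above 0, and 27 had none. The choice of windows favoured this direction, here and in the gene counts below, and the same count over all genes is not given. Each region was given to the gene that holds its summit, or else to the nearest gene end within 50 kb, so a gene named here need not be the one an element acts on. The largest counts stood at 3 long genes, SIPA1L1, TNRC6B and SHANK2.

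**Figure D2:**
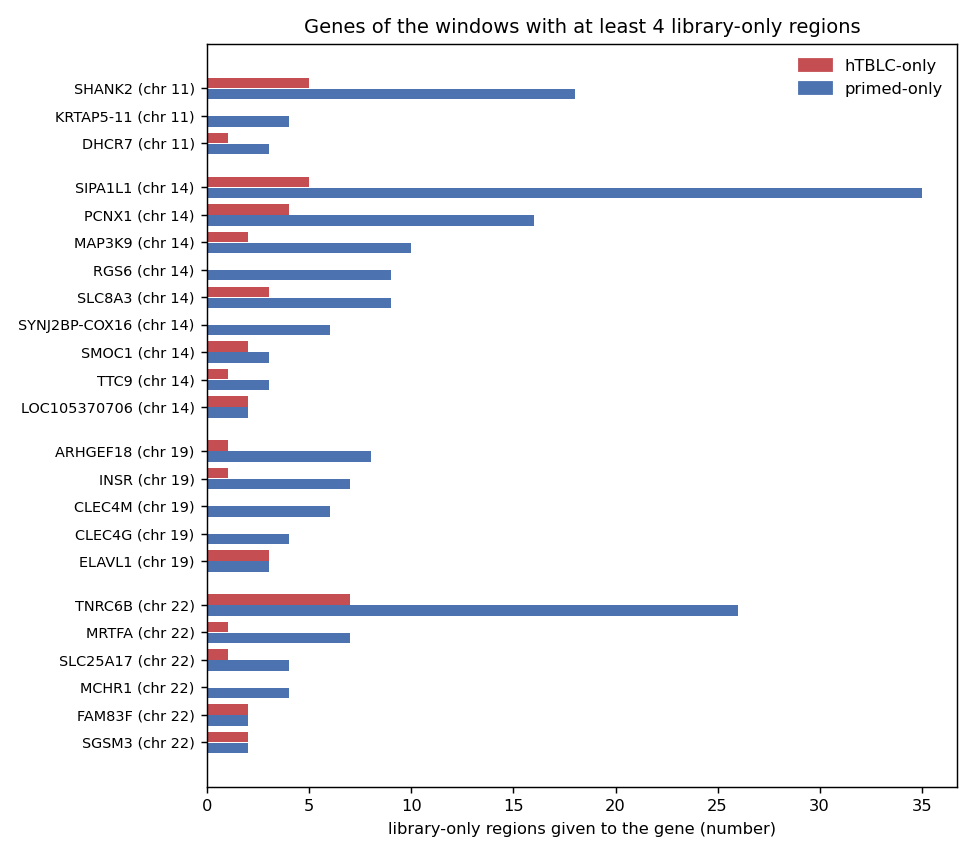
Number of library-only regions given to each gene (x axis) for genes of the windows with at least 4, by chromosome. Red bars are hTBLC-only and blue bars primed-only regions; SIPA1L1 has 5 red and 35 blue, TNRC6B 7 and 26, and SHANK2 5 and 18.

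On chromosome 14 the primed-only regions filled SIPA1L1, a regulator of Rap GTPases that is known from the actin skeleton and synapses. The gene had 5 hTBLC-only and 35 primed-only regions, of which 3 hTBLC-only and 30 primed-only lay inside its 421 kb. That inside share of 9.09% was the 2nd lowest among 1106 protein-coding genes with at least 20 library-only regions, whose median was 50%. The window was chosen for a low share, which favoured a low rank of the genes in it. The regions were scattered: the 30 primed-only ones had a median spacing of 10.2 kb from the first at 71322058 to the last ending at 71739928, and a median pileup of 10, of which 5 reached a −log10 q of 10. No hTBLC-only region interrupted 19 primed-only regions in a row over 265 kb, from 71309795 to 71574434. Of the stretches without any hTBLC region, the one with most primed regions ran 36.0 kb from 71586781 and held 7. The start of the gene itself was open in both, with a pileup of 128 in hTBLCs and 109 in primed cells. Of 9 matched regions inside it, 7 had a scaled ratio below 1, with a median log2 ratio of -0.37.

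The strongest primed-only region at SIPA1L1, chr14:71322058-71322298, lay 1708 bp inside the gene end and 897 bp from the nearest hTBLC region, with a pileup of 44 (95% Poisson interval 31.97 to 59.07). Its fold over the local background was 4.21. The strongest hTBLC-only region assigned to the gene lay outside it at chr14:71301684-71301962, with a pileup of 18 (10.7 to 28.4). Most primed-only regions of SIPA1L1 were thus weak.

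Further along the same window, PCNX1, a pecanex family membrane protein, had 4 hTBLC-only regions beside 16 primed-only ones, and MAP3K9 had 2 hTBLC-only and 10 primed-only. SLC8A3, a sodium-calcium exchanger, had 3 hTBLC-only and 9 primed-only. The readthrough gene SYNJ2BP-COX16 had 0 hTBLC-only and 6 primed-only, and SYNJ2BP alone, a mitochondrial outer membrane protein, had 0 hTBLC-only and 2 primed-only. RGS6, a brake on G protein signalling, had 0 hTBLC-only and 9 primed-only in the window, but over its whole 763 kb it had 19 hTBLC-only and 20 primed-only regions, a share of 48.7%. None of those 19 hTBLC-only regions lay in the window. SMOC1, an extracellular matrix protein, had 2 hTBLC-only and 3 primed-only, MED6, a Mediator subunit, had 1 hTBLC-only and 2 primed-only, and COX16, a cytochrome c oxidase assembly factor, had none.

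All 5 listed signalling genes of this window (MAP3K9, SIPA1L1, RGS6, SMOC1 and SLC8A3) had more primed-only regions, 12 hTBLC-only against 66 primed-only in sum, as did 11 of the 15 genes of the window. Of the transcription and mitochondrial genes, MED6 and SYNJ2BP did and COX16 had none, with 1 hTBLC-only and 4 primed-only regions in sum. ADAM21, a testis-expressed metalloprotease gene, went the other way with 2 hTBLC-only and 0 primed-only regions. LOC105370706 had 2 of each kind. The strongest hTBLC-only region near ADAM21 had a pileup of 15 (8.40 to 24.7).

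The 2 strongest primed-only regions of the chromosome 14 window flanked or lay in MAP3K9. The first, chr14:70708706-70709138, stood 13582 bp beyond the gene end with a pileup of 73 (57.2 to 91.8), and an hTBLC region began 130 bp away. The second, chr14:70808206-70808677, lay 1203 bp inside the gene with a pileup of 50 (37.1 to 65.9), 334 bp from an hTBLC region. Both counted as shared when a gap of 500 bp was allowed. The MAP3K9 promoter printed above was strong in both, with 206 in hTBLCs and 199 in primed cells. An hTBLC-only region in SLC8A3, chr14:70188245-70188531, with a pileup of 17 (9.90 to 27.2), lay 80 bp from a primed region and is of the same uncertain kind.

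On chromosome 22 TNRC6B took the largest share of the window's primed-only regions. It had 7 hTBLC-only and 26 of the 52 primed-only regions, all inside its 291 kb. The hTBLC-only share of 21.2% ranked 15th lowest of the 1106 genes, and here too the choice of windows favoured a low rank. The median pileup was 10 for the hTBLC-only and 12 for the primed-only regions. In an 87.8 kb stretch from 40194035 to 40281856 there was no hTBLC region and 11 primed regions, with pileups of 10 to 53. The one with 53 reaches in from the border, where it overlaps an hTBLC region of 12, and the other 10 were primed-only. The strongest primed-only one, chr22:40209301-40210237, had a pileup of 45 (32.8 to 60.2) and lay 126164 bp from the nearer gene end and 15266 bp from any hTBLC region. The next, chr22:40147419-40147709, had 30 (20.2 to 42.8).

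TNRC6B was not empty of hTBLC-only signal. Its strongest such region, chr22:40121520-40121795, had a pileup of 23 (14.6 to 34.5), and chr22:40051345-40051674 had 21 (13.0 to 32.1). At all 8 matched regions inside the gene the scaled ratio was below 1, with a median log2 ratio of -0.92. The lowest were 12 in hTBLCs against 53 in primed cells (scaled ratio 0.21, 95% binomial interval 0.10 to 0.39) and 9 in hTBLCs against 36 in primed cells (0.23, 0.097 to 0.48). The highest was 34 in hTBLCs against 32 in primed cells (0.97, 0.58 to 1.62), which fell below 1 only through the scaling for depth. The same holds for a region with 20 in each library (0.91, 0.47 to 1.79). Its promoter, with 133 in hTBLCs and 137 in primed cells, had a log2 ratio of -0.17, against a genome median of 0.04 at promoters.

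The other genes of chromosome 22 had fewer regions. MRTFA, an actin-regulated coactivator of serum response factor, had 1 hTBLC-only and 7 primed-only regions. MCHR1, the receptor for melanin-concentrating hormone, had 0 hTBLC-only and 4 primed-only, all outside the gene. SLC25A17, a peroxisomal carrier, had 1 hTBLC-only and 4 primed-only. XPNPEP3, a mitochondrial aminopeptidase, and RBX1, the RING subunit of cullin ubiquitin ligases, each had 0 hTBLC-only and 3 primed-only. ADSL, an enzyme of purine synthesis, had none of either. FAM83F and SGSM3 each had 2 of each kind. The longest run of primed-only regions without an hTBLC-only one held 11 over 291 kb, from 40437057 to 40728180, and covers most of MRTFA and all of MCHR1. EP300 and GRAP2, which were listed with these genes, lie outside the window.

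Outside TNRC6B the strongest region of each kind lay in neighbouring genes. The hTBLC-only one in MRTFA, chr22:40418605-40419055, had a pileup of 20 (12.2 to 30.9), and the primed-only one in SGSM3, chr22:40399221-40399539, had 28 (18.6 to 40.5).

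On chromosome 11 the regions gathered around the end of SHANK2, a scaffold of excitatory synapses. In the window it had 5 hTBLC-only and 18 primed-only regions. Its 785 kb reach far beyond the window, and inside the whole gene there were 30 hTBLC-only and 59 primed-only regions, a share of 33.7%, or rank 125 of 1106. The strongest primed-only region of all 4 windows, chr11:71266055-71266718, stood 13248 bp beyond the gene end with a pileup of 95 (76.9 to 116), a fold of 18.0 over its background and 12656 bp from any hTBLC region. A second, chr11:71252305-71252681, had 45 (32.8 to 60.2) but was 220 bp from an hTBLC region, and another, chr11:71255964-71256450, had 43 (31.1 to 57.9). A weaker hTBLC-only region lay near them at chr11:71282546-71282798, with 18 (10.7 to 28.4).

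DHCR7, which makes the last step of cholesterol synthesis, had 1 hTBLC-only and 3 primed-only regions. NADSYN1 had 1 hTBLC-only and 0 primed-only. The strongest hTBLC-only region of this window, chr11:71395058-71395559, lay 32075 bp from DHCR7 with a pileup of 37 (26.1 to 51.0) and 14976 bp from any primed region, so the window held a well separated element on the hTBLC side too. NADSYN1 held a weaker one, chr11:71459390-71459675, with 16 (9.15 to 26.0). The keratin-associated protein genes had a single hTBLC-only region, at KRTAP5-8, and 4 that were primed-only, at KRTAP5-11, and KRTAP5-7, KRTAP5-9 and KRTAP5-10 had none. These genes are close copies of each other, and how reads were placed among copies was not analysed here.

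From KRTAP5-11 on, the chromosome 11 window had 17 primed-only regions in a row without an hTBLC-only one, over 416 kb from 71578925 to 71995041. In the window 0 hTBLC-only and 13 primed-only regions had no protein-coding gene within 50 kb. XNDC1N had 0 hTBLC-only and 3 primed-only, and RNF121, a ubiquitin ligase of the secretory pathway, had 0 hTBLC-only and 2 primed-only. Near the defensin gene DEFB108B there were 7 hTBLC and 7 primed regions, all shared. NUMA1, CLPB and LAMTOR1, which were listed with RNF121, lie outside the window.

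On chromosome 19 the picture was a patchwork of 34 genes. INSR, the insulin receptor, had 1 hTBLC-only and 7 primed-only regions. ARHGEF18 had 1 hTBLC-only and 8 primed-only. The 6 myeloid lectin and immune genes had 12 library-only regions in sum, 0 of them hTBLC-only and 12 primed-only. They were CLEC4M, a lectin of sinusoidal endothelium, with 6 primed-only regions, CLEC4G, a related lectin, with 4, CD209, the dendritic cell lectin DC-SIGN, with 1 and RETN with 1, while FCER2, the low-affinity IgE receptor, and MCEMP1, a mast cell membrane protein, had none.

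The regions given to the lectin genes lay close together, but not all of them in the genes. All 6 given to CLEC4M and the 1 given to CD209 lay outside the gene, whereas 3 of the 4 at CLEC4G lay inside. A stretch of 143 kb, from 7686107 to 7829506, held no hTBLC region and 12 primed regions, with pileups of 9 to 34, and the longest run of primed-only regions held 14 over 157 kb. The strongest near CD209, chr19:7748778-7749214, had a pileup of 34 (23.5 to 47.5). It stood 1412 bp from the gene end and 62671 bp from the nearest hTBLC region. The strongest given to CLEC4M, chr19:7787247-7787594, had 31 (21.1 to 44.0). It stood 17780 bp from the gene end and 41912 bp from the nearest hTBLC region. No promoter of CD209, CLEC4M, FCER2 or MCEMP1 had a region in either library. The run begins in STXBP2 and takes in RETN, whereas the stretch without hTBLC regions lies between genes open in both libraries, TRAPPC5 with 39 in hTBLCs and 26 in primed cells and EVI5L with 155 in hTBLCs and 142 in primed cells.

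Single-library gene ends were few. Within 1 kb of either end, KRTAP5-8 had a region in hTBLCs alone, with a pileup of 8. KRTAP5-11, RETN and CLEC4G had regions in primed cells alone, with highest pileups of 10, 7 and 14. The lowest pileup listed anywhere was 7 in hTBLCs and 6 in primed cells. The other genes of chromosome 19 had small counts: MCOLN1, a lysosomal ion channel, had 0 hTBLC-only and 1 primed-only, PNPLA6, a phospholipase, had none, STXBP2, a partner of membrane fusion proteins, had 1 of each kind, MAP2K7, a kinase above JNK, had 0 hTBLC-only and 1 primed-only, and ELAVL1, the RNA-binding protein HuR, had 3 of each kind. The MBD3L genes, close copies of each other, had no region in either library.

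STXBP2 held a strong region of each kind, 1770 bp apart. The hTBLC-only region, chr19:7641357-7641628, had a pileup of 21 (13.0 to 32.1), and the primed-only region, chr19:7643399-7644449, had 60 (45.8 to 77.2). The strongest hTBLC-only region of all 4 windows lay 265 bp inside an end of PEX11G, a peroxisome division gene, at chr19:7494375-7494886, with 52 (38.8 to 68.2). EVI5L, a GTPase-activating protein for Rab proteins, held an hTBLC-only region, chr19:7831554-7831831, with 33 (22.7 to 46.3) but a fold of only 2.86.

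Matched regions were then read for whether they lean the same way. They share the libraries and the contrast with the rule, so these values too are a description. Of 213 matched regions in the 4 windows, 157 had a scaled hTBLC to primed ratio below 1, or 73.7% (67.4% to 79.2%), where 56.5% of all 139523 matched regions did. The median log2 ratio was -0.34 (quartiles -0.87 and 0.01), against -0.13 over the genome, a difference of -0.21. The interval of the ratio lay wholly below 1 at 65 and wholly above 1 at 6, where 18.0% and 11.2% of all matched regions did.

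By window the values were as follows, and the intervals of the 4 medians overlap. On chromosome 11 a ratio below 1 was present at 31 of 43 matched regions (72.1%), with a median log2 ratio of -0.55 (95% binomial interval over regions -0.80 to -0.06), or -0.42 relative to the genome, and intervals wholly below 1 at 17 and above 1 at 1. On chromosome 19 it was present at 39 of 51 (76.5%), with a median of -0.40 (-0.66 to -0.20), or -0.27 relative to the genome, and intervals at 19 and 1. On chromosome 14 it was present at 62 of 86 (72.1%), with a median of -0.28 (-0.53 to -0.13), or -0.15 relative to the genome, and intervals at 20 and 4. On chromosome 22 it was present at 25 of 33 (75.8%), with a median of -0.19 (-0.61 to -0.13), or -0.06 relative to the genome, and the intervals were at 9 and 0.

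Within chromosome 14 the intervals of the 2 megabases overlap as well. In 70 to 71 Mb, 41 of 50 matched regions were below 1 (82.0%, 69.2% to 90.2%) and the median log2 ratio was -0.50 (-0.67 to -0.20). In 71 to 72 Mb, which holds SIPA1L1, 21 of 36 were below 1 (58.3%, 42.2% to 72.9%) and the median was -0.13 (-0.47 to 0.19), the value of the whole genome, and 11 hTBLC-only and 52 primed-only regions lay there. A difference between the 2 megabases was not tested.

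The lean was not confined to the windows. In the adjoining megabases on chromosome 11 the median log2 ratio was -0.57 before and -0.44 after the window, and on chromosome 22 it was -0.51 before and -0.42 after, both lower than the -0.19 inside. On chromosome 14 it was -0.43 before and -0.28 after, and on chromosome 19 it was -0.45 before and -0.06 after. The hTBLC-only share was higher in all 8 of these neighbours, at 26.8% to 52.6%. The median log2 ratio also fell with gene number over all 1 Mb windows, to -0.27 in those with 21 or more genes, against -0.04 in those with none.

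**Figure D3:**
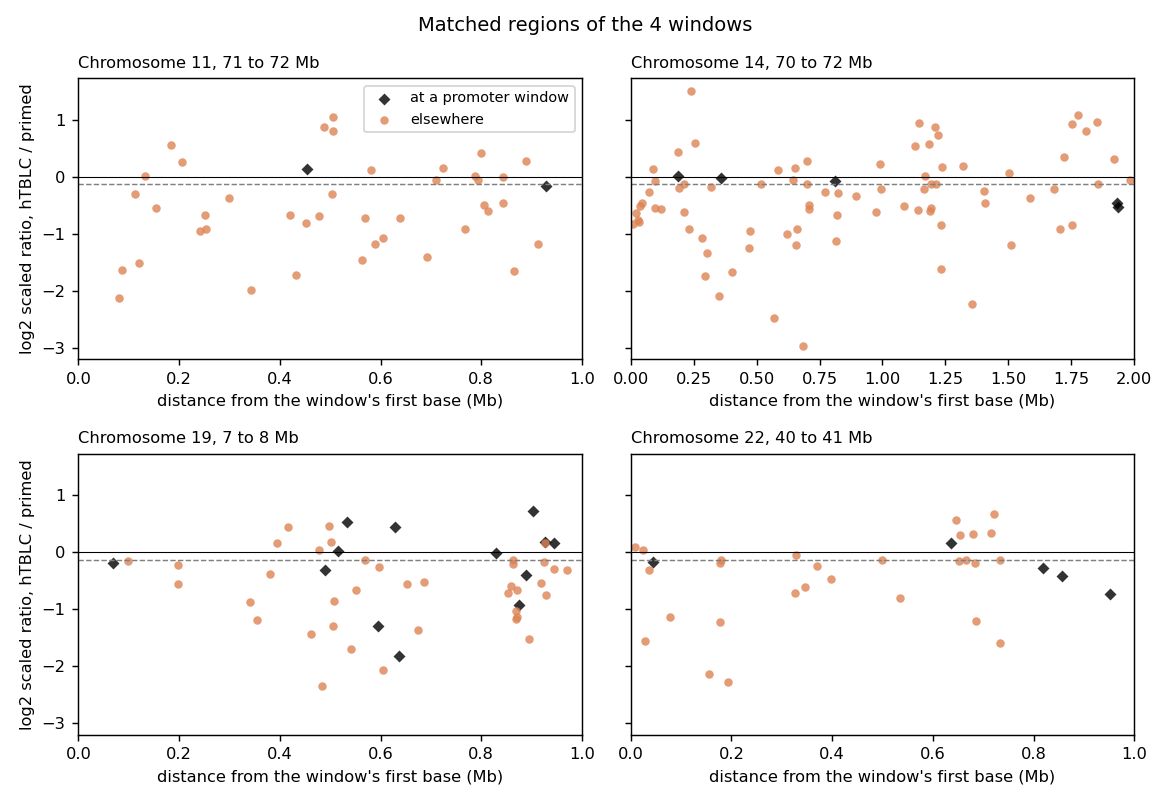
Log2 scaled ratio of hTBLC to primed pileup (y axis) of each matched region against its distance from the window's first base (x axis, Mb). Diamonds are regions at a promoter and circles all others; the dashed line is the genome median of -0.13, and 157 of the 213 points lie below 0.

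With a summed pileup of at least 40, the 3 regions of lowest ratio per window lay away from promoters, with the exception of STXBP2. Near TTC9, a tetratricopeptide repeat gene, the pileup was 11 in hTBLCs and 79 in primed cells (scaled ratio 0.13, 0.061 to 0.24). In ADAM20 it was 9 in hTBLCs and 46 in primed cells (0.18, 0.077 to 0.37), and in COX16 10 in hTBLCs and 39 in primed cells (0.23, 0.10 to 0.48). In PEX11G it was 8 in hTBLCs and 37 in primed cells (0.20, 0.079 to 0.43), in the same gene as the strong hTBLC-only region. In SHANK2 it was 13 in hTBLCs and 52 in primed cells (0.23, 0.11 to 0.43), in DHCR7 11 in hTBLCs and 33 in primed cells (0.30, 0.14 to 0.62), and in CAMSAP3 15 in hTBLCs and 57 in primed cells (0.24, 0.13 to 0.43). Between SLC25A17 and MCHR1 it was 21 in hTBLCs and 58 in primed cells (0.33, 0.19 to 0.55).

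Of the 213 matched regions, 6 had an interval wholly above 1. By the same limit on the summed pileup, the highest ratios were these. On chromosome 14 a region over 50 kb from any gene end had 31 in hTBLCs and 10 in primed cells (2.83, 1.35 to 6.47), one beyond SIPA1L1 had 51 in hTBLCs and 22 in primed cells (2.12, 1.26 to 3.67), and one before RGS6 had 32 in hTBLCs and 15 in primed cells (1.95, 1.03 to 3.87). On chromosome 11 a region beyond NADSYN1 had 34 in hTBLCs and 15 in primed cells (2.07, 1.10 to 4.09). On chromosome 19 the highest were promoters, MAP2K7 with 58 in hTBLCs and 32 in primed cells (1.66, 1.06 to 2.63) and PNPLA6 with 54 in hTBLCs and 34 in primed cells (1.45, 0.93 to 2.30). On chromosome 22 it was 1.49 near MRTFA, from 31 in hTBLCs and 19 in primed cells, and its interval, 0.82 to 2.79, includes 1.

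Promoters leaned less than other matched regions. At the 25 matched regions over a promoter, 16 were below 1 (64.0%; genome, 46.6%) and the median log2 ratio was -0.16 (genome, 0.04). At the other 188, 141 were below 1 (75%; genome, 57.2%) and the median was -0.46 (genome, -0.13). Promoters were above the other regions over the genome as well. The windows differed, and 13 of the 25 promoter regions lay on chromosome 19. On chromosome 22 the median was -0.26 at 5 promoter regions and -0.19 at the 28 others. On chromosome 14 the medians were -0.08 at 5 promoter regions and -0.28 at the others, but 80% and 71.6% were below 1.

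Of 58 promoters of the windows in the RefSeq table, 37 were open in both libraries and 19 in neither. SNAPC2, a subunit of the small nuclear RNA activating complex, had an hTBLC pileup of 40 and no primed region in the 300 bases, but its hTBLC region touched a primed one beyond them. RETN had a primed region alone, with 7. Among the promoters open in both, TIMM44, a mitochondrial import protein, had 239 in hTBLCs and 194 in primed cells, MRTFA had 176 in hTBLCs and 143 in primed cells, and DHCR7 had 113 in hTBLCs and 134 in primed cells. CAMSAP3 had 27 in hTBLCs and 60 in primed cells (scaled ratio 0.41, 0.25 to 0.66), and STXBP2 had 10 in hTBLCs and 32 in primed cells (0.29, 0.13 to 0.60). The STXBP2 entry lies inside the annotated gene, whose outer end, shared with PET100, had 67 in hTBLCs and 45 in primed cells. PRR36 had 56 in hTBLCs and 97 in primed cells, PCNX1 62 in hTBLCs and 95 in primed cells, and RBX1 66 in hTBLCs and 100 in primed cells.

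**Figure D4:**
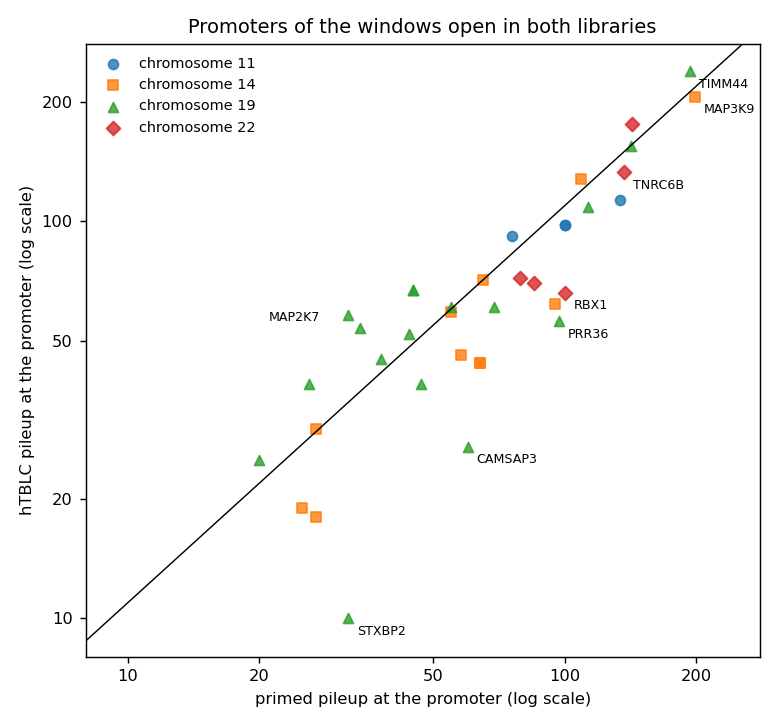
Pileup of hTBLCs (y axis, log scale) against that of primed cells (x axis, log scale) at the 37 promoters open in both libraries, with colour and shape for the chromosome. The line is equal signal after scaling for depth; CAMSAP3 (27 in hTBLCs, 60 in primed cells) and STXBP2 (10 and 32) lie farthest below it.

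The open promoters were rich in G and C. Those open in both libraries had a median GC content of 66.3% and 29 CG dinucleotides, and those open in neither had 47.7% and 5. GGGCGG stood in 28 of 37 and in 4 of 19, against 58.5% of 15812 promoters in the table. CCAAT stood in 18 of 37 and 11 of 19 (36.3% of all), CCGGAA in 14 and 6 (22.8%), and TATAAA, the TATA box, in 2 and 7 (9.64%). All were searched on both strands. The promoters open in neither library include those of the MBD3L genes, which are close copies of each other but were counted singly. For each motif but CCAAT, most of the promoters open in neither that held it were such copies. SYNJ2BP and SYNJ2BP-COX16, open in both, have the same promoter and were also counted separately. The counts are therefore not of independent promoters.

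The borders of the primed-only stretches came from runs of library-only regions within 3 Mb of each window. Runs were scored for a share of 80% primed-only inside against 47.9% over the genome. Of the locally highest-scoring runs, the one that held most primed-only regions of the window was taken, and the score decided only ties. Such a run stops where hTBLC-only regions gather, so the counts beside each stretch are partly set by the scoring. On chromosome 11 the stretch ran 1279 kb, from 70725838 in SHANK2 to 72005243 in IL18BP, an inhibitor of interleukin-18, with 16 hTBLC-only and 69 primed-only regions. In the 500 kb before it there were 28 hTBLC-only and 38 primed-only regions, and in the 500 kb after it 11 hTBLC-only and 14 primed-only. It began inside SHANK2 and held all 43 primed-only regions of the window, a count that the choice of run favoured.

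On chromosome 14 the stretch ran 2145 kb, from 70098916 in SLC8A3 to 72244221 in RGS6, with 22 hTBLC-only and 107 primed-only regions. In the 500 kb before it there were 22 hTBLC-only and 18 primed-only regions, and after it 21 hTBLC-only and 14 primed-only. It held 97 of the window's 100 primed-only regions, which the choice of run favoured here too. The start lies inside SLC8A3 and leaves out SMOC1, and the end divides RGS6.

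On chromosome 19 the stretch ran 2194 kb, from 6243343 in MLLT1, a subunit of the super elongation complex, to 8437116 in MARCHF2, a membrane ubiquitin ligase. It held 22 hTBLC-only and 85 primed-only regions, while 19 hTBLC-only and 10 primed-only lay in the 500 kb before it and 12 hTBLC-only and 11 primed-only after it. On chromosome 22 it ran 4233 kb, from 38861602 in CBX6, a Polycomb group protein, to 43094468 near TTLL1, a tubulin polyglutamylase, with 77 hTBLC-only and 228 primed-only. There 15 hTBLC-only and 18 primed-only lay in the 500 kb before it and 39 hTBLC-only and 31 primed-only after it. The chromosome 22 window is therefore a piece of a longer stretch with an hTBLC-only share of 25.2%, and the chromosome 19 window the middle of one with 20.6%. The matched regions of the stretches had median log2 ratios of -0.57, -0.25, -0.32 and -0.42 on chromosomes 11, 14, 19 and 22.

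**Figure D5:**
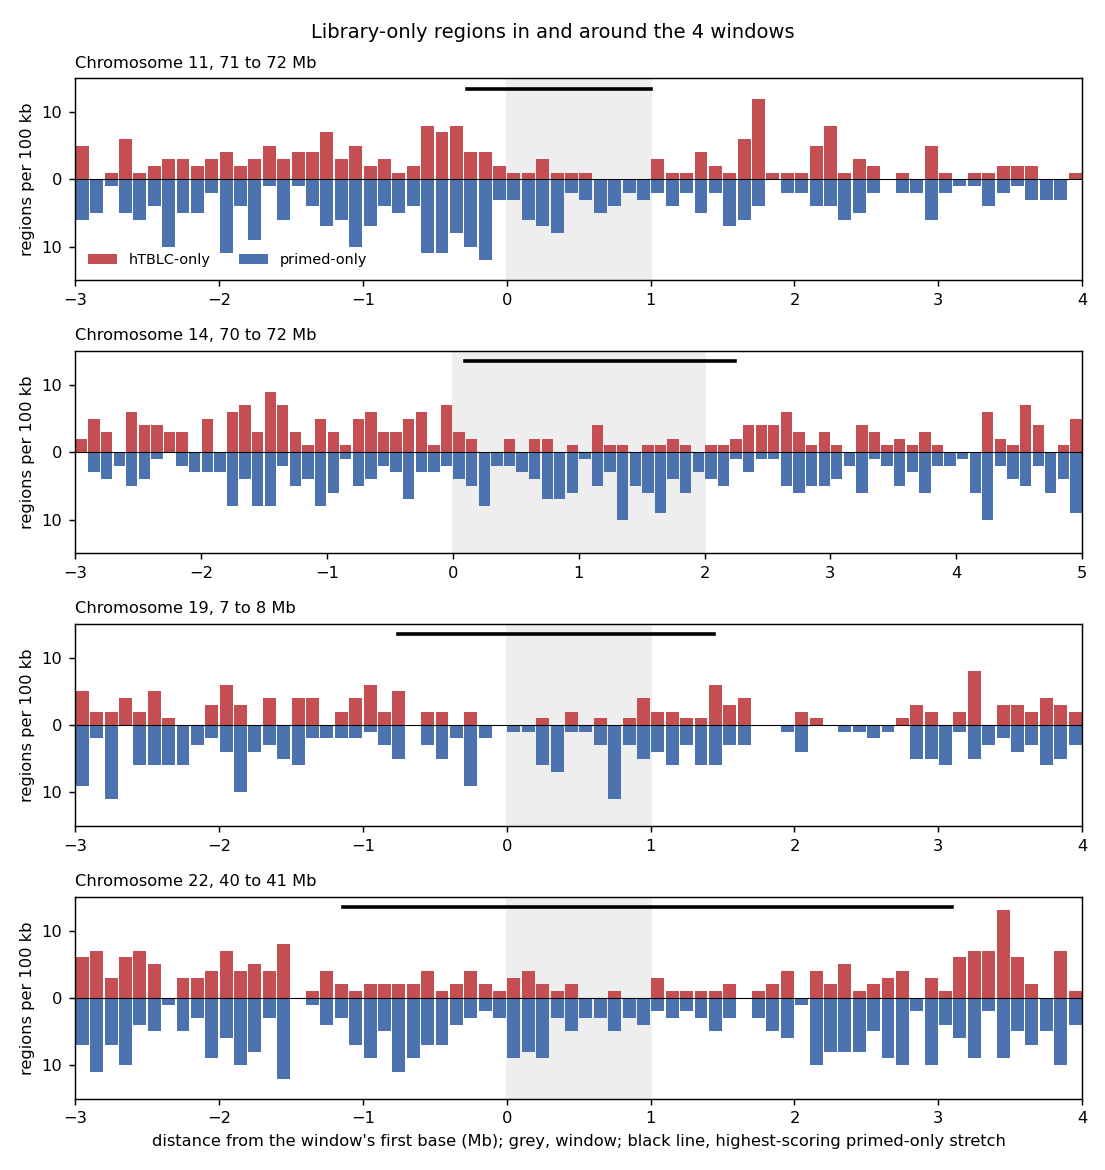
Library-only regions per 100 kb (y axis) from 3 Mb before to 3 Mb after each window (x axis, distance from the window's first base in Mb), hTBLC-only in red above the axis and primed-only in blue below it. Grey marks the window. The black line, named highest-scoring in the axis label, is the high-scoring stretch that held most primed-only regions of the window. It spans 1279 kb on chromosome 11, 2145 kb on 14, 2194 kb on 19 and 4233 kb on 22.

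How the borders depend on the score also differed. Scored for a share of 70%, the stretches grew to 4197, 4810 and 6047 kb on chromosomes 11, 14 and 19, the start on chromosome 14 staying at 70098916. On chromosome 22 no setting moved the length by more than 1.5 times.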

How the data were processed

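ATAC-seq of WIBR3 cells was analysed from 1 hTBLC and 1 primed library. Peaks were listed for each library separately. Bowtie2, Picard, MACS2 and hg38 are named in the submitters' processing notes, without version, role or setting. The sources used here do not give the calling threshold, duplicate removal or any shift of reads. For each peak the authors deposited a fold over the library's own local background, a −log10 p-value, a −log10 q-value and a score, of which the deposited score was not used. Of the ranks named in the lists, 327 hTBLC and 252 primed ranks have no line, and a region there counts as absent.

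A whole pileup and a background were solved for each peak from fold and p (Poisson upper tail, pseudocount 1, tolerance 0.001 in −log10 p), which succeeded for 99.998% of hTBLC and 99.999% of primed peaks. That background is the only measure of depth, since read totals were not analysed here. Regions are merged peaks of chromosomes 1 to 22 and X, shared when they overlapped by at least 1 bp. Shares have Wilson intervals, pileups exact Poisson and ratios exact binomial intervals at 95%. Genes and promoters are those of RefSeq on GRCh38.p14, and the gene table has no exons. No genome sequence was used, so the letters, repeats and copies under the peaks were not analysed here.

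By rule, the genes named per window are the 5 with most primed-only regions, those at the 3 strongest regions of each kind, at the 3 lowest and 3 highest ratios with a summed pileup of at least 40, at gene ends open in 1 library and at the borders, and fixed lists; other genes and the state markers were added after their values were seen. The windows, members and lists were chosen with earlier results of these data known. Steps were checked on simulated data in Python 3.11.15 with numpy 2.4.6, pandas 2.3.3 and scipy 1.17.1.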

Additional observations from a re-analysis of the deposited data

How the results depend on the processing

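No result changed direction under the alternatives run. No paired analysis was possible because each group has 1 library. The hTBLC-only share stayed within its interval in 24 of 28 values, from 7 settings in 4 windows. It became 31.8% on chromosome 11 (7 hTBLC-only and 15 primed-only) and 40% on chromosome 22 (4 and 6) among the top 50000 regions of each list. In that setting it also rose on chromosome 19, to 30.8% (4 and 9), which is within its wide interval. There it was 19.05% on chromosome 14 (4 and 17) and 49.98% over the genome. The hTBLC-only share became 26.7% on chromosome 14 and 31.9% on chromosome 19 when shared meant a reciprocal overlap of at least 50%. A floor at the lowest hTBLC −log10 p, added after the data were seen, left it within its interval in all 4 windows.

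The share of matched regions below a ratio of 1 on chromosome 14 became 59.3% without scaling for depth, 85.2% with −log10 q held to 5 or more, 85.3% with it held to 10 or more, and on chromosome 19 it became 86.7% without regions at gene ends. The median log2 ratio on chromosome 22 was -0.0614 without scaling. The stretches lengthened to 4197 kb on chromosome 11, 4810 kb on 14 and 6047 kb on 19 when scored for a share of 70%, to 2552 kb on 11 with −log10 q held to 5 or more, and to 3844 kb on 19 when regions within 500 bp counted as shared. At 70% the stretches on 14 and 19 came close to the edge of the search. Of the 24 strongest library-only regions, 20 remained library-only with the 500 bp gap. The causes were not tested. Small counts limit the strict settings, and 1 library per group gives no spread between replicates.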
